A study of Mus musculus with 54 samples.

Results

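aSyn-loaded microglia were compared between 300 and 15 min of contact with acceptor microglia. The comparison takes the 8 libraries of cells that carried alpha-synuclein (aSyn), 4 sorted after 300 min and 4 after 15 min, out of 54 libraries in the series, and joins them by replicate number into 4 pairs. Cells at both times had met the protein and the partner cells and had been sorted. The groups therefore differ in the length of the co-culture, and equally in the time since aSyn loading and mixing. The labels list no loaded cells kept without partner cells over the same times. An effect of contact apart from elapsed time was therefore not tested.

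All libraries came from primary microglia of C57BL/6 mice, grown from neonatal brains on an astrocyte layer and shaken off it, with the cells of several brains sharing a flask. Donor cultures took up 1 µM aSyn carrying the dye Atto-488 for 14 h before mixing. Acceptor cultures were stained with CellTracer Violet and received no aSyn, and the 2 populations were pulled apart again by flow cytometry before RNA was taken. Other groups used below for orientation are untreated cells, cells given aSyn without co-culture, loaded cells at 0, 30, 60 and 150 min, and acceptors at every time. The labels give no separate animals or cultures for the replicates; they give passage 3 for replicate 1, passage 1 for replicate 2 and passage 2 for replicates 3 and 4. The p-values therefore measure the spread between these samples, which may be technical in part.

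aSyn is the neuronal protein that aggregates in Parkinson disease, and microglia, the resident macrophages of the brain, take it up and degrade it. A macrophage that meets a particle or a neighbour switches on immediate early genes, whose transcripts appear without new protein synthesis and are short lived because their 3′ untranslated regions (UTRs) recruit decay factors. These genes include the AP-1 and EGR transcription factors, and phosphatases and decay factors that switch the same signals off.

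Library totals of the 8 samples lay between 11406996 and 14021275 counts, and 13466 to 14175 genes had counts. Replicate 4 stood apart at both times: Rn45s, the ribosomal RNA precursor, took 14.5% and 15.3% of counts there against 3.47 to 10.99% in the other 6 libraries. Summed microglia and macrophage markers came to 5146 and 5570 CPM (counts per 1000000 counts of the scaled library) in replicate 4 and 10220 to 13036 CPM in the others. All 12 of these markers had counts, and their sums averaged 10135 CPM at 15 min and 10116 CPM at 300 min, so the label of the cells matched their markers. Astrocyte markers summed to 129 to 744 CPM at 15 min and 170.0 to 493 CPM at 300 min. Most of that sum was Glul (glutamine synthetase), and the other 11 astrocyte markers summed to 17.3 to 33.7 CPM and then 20.1 to 61.5 CPM, higher at 300 min in 4 of 4 pairs. Oligodendrocyte-lineage markers summed to 116 to 215 CPM and 155 to 251.4 CPM, and neuron markers to 0.282 to 5.35 CPM and 0.912 to 11.6 CPM, in that order of times, and both sums were higher at 300 min in 4 of 4 pairs. Ependymal markers, at 0.555 to 4.16 and 0.235 to 2.51 CPM, were lower in 4 of 4. The exact two-sided permutation test over the 8 libraries gave a lowest p of 0.229 (adjusted 0.912) over 13 such technical measures, but it does not use the pairs and could not go below an adjusted p of 0.371 for a single measure. The exact two-sided sign-flip test over the 4 pairs gave 0.125, the smallest p it allows, for the oligodendrocyte-lineage, neuron and ependymal sums. In bulk RNA, fewer cells of a type and less RNA per cell cannot be told apart.

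Most of what changed between 15 and 300 min went down. Of 13169 genes tested with edgeR (quasi-likelihood test with the replicate number as a block, all 14 groups in 1 fit, Benjamini-Hochberg adjusted p under 0.05), 98 were called, which is 0.744%. There were 81 lower genes at 300 min (0.615% of all tested) and 17 higher genes (0.129%). The median log2 fold change of the lower genes was -0.85, that of the higher genes 0.64, and that of all genes 0.02. More than 2-fold changes made up 36 of the falls and 5 of the rises. All 81 falls and 16 of the 17 rises had 1 direction in the 4 pairs. The CPM of the 2 times did not overlap for 52 of the 81 falls and 1 of the 17 rises, against 2.29% of all genes tested. Without a threshold on the adjusted p the directions were nearly balanced, since at an unadjusted p under 0.05 there were 740 lower genes (5.62%) and 664 higher genes (5.04%).

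The count of calls rests on how the pairs are used. Same-numbered libraries at the 2 times deviated together from their group means (Pearson r across genes 0.54, 0.54, 0.53 and 0.74 for pairs 1 to 4), and without the replicate block only 10 genes were called, all of them lower and all among the 98, with Klf2, Cxcr4, Wee1, Fbxo32, Fosb, Dusp1, Ier2, Mtmr10 and Mknk2 among them. The fit of the 8 libraries alone called 504 genes (4.42% of 11403), 317 lower (2.78%) and 187 higher (1.64%), 94 of them among the 98. Leaving out pair 1, 2, 3 or 4 gave 19, 15, 41 and 207 calls, with 18, 15, 37 and 77 of the 98 still called. Replicate 4 carries library numbers from a separate range of the sequencing facility, so the value of 207 is the one within the other range. All 98 genes kept their sign in each alternative that gave them a value, and of the 48 called genes given by the naming rule 7 stayed called whichever pair or library was left out: Klf2, Wee1, Fbxo32, Adgre5, Tsc22d3, Dusp1 and Fosb.

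**Figure D1:**
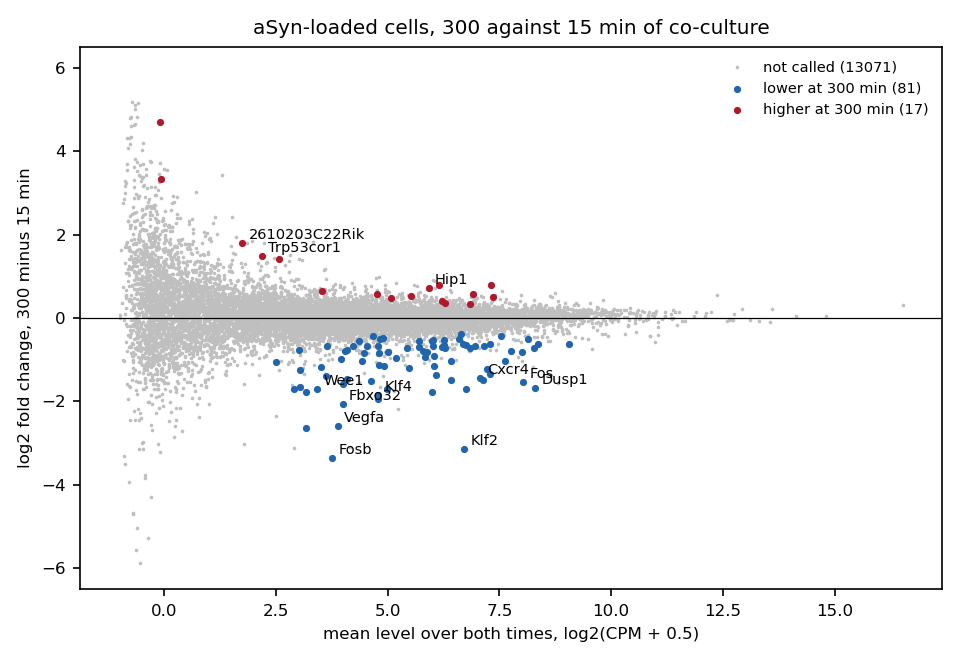
Each point is 1 of 13169 genes in aSyn-loaded cells; the x axis is the mean level over both times as log2(CPM + 0.5) and the y axis the log2 fold change, 300 minus 15 min. The 81 lower genes (blue) reach -3.36 (Fosb), while the 17 higher genes (red) are fewer and, apart from Fhl1 and Tubb4a at the left edge, lie between 0.34 and 1.79.

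Klf2 had the smallest p of the comparison. It encodes a zinc-finger transcription factor known for restraining activation of macrophages and endothelium. Its level was 342, 116, 166 and 129 CPM at 15 min and 33.04, 22.7, 21.3 and 8.07 CPM at 300 min (replicates 1 to 4). Every 300 min library lay below every 15 min library, and replicate 1 was the highest at both times. The log2 fold change, 300 minus 15 min, was -3.14, SE 0.35, adjusted p 5.80e-07 by edgeR. Klf2 had averaged 132 ± 49.6 CPM (here and below mean ± SD, n = 4, or n = 3 for loaded cells at 0 and 60 min and acceptors at 0 and 300 min) in cells given aSyn without co-culture and 21.5 ± 9.24 CPM in untreated cells. In loaded cells it stood at 193 ± 101 CPM at 30 min, 149 ± 18.9 CPM at 60 min and 52.3 ± 23.9 CPM at 150 min, so the 300 min value was the lowest of the series of times and close to the untreated mean. The gene lies at chr8:72319033-72321656 on the plus strand of mm10.

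Of 11 tested Kruppel-like factors, 4 were lower and 0 higher (7 lower at an unadjusted p under 0.05), with a list median of -0.38. Klf4, a relative with roles in macrophage polarization, was 47.3, 40.7, 39.2 and 42.4 CPM at 15 min and 11.4, 14.1, 9.08 and 13.5 CPM at 300 min. The 2 sets of values were apart by more than 2-fold at their nearest, and the log2 fold change was -1.85, SE 0.31, adjusted p 6.75e-04 by edgeR. Klf10, a TGF-beta-induced member, averaged 41.02 ± 9.38 CPM at 15 min and 22.7 ± 1.22 CPM at 300 min (-0.82, SE 0.17, adjusted p 0.00752 by edgeR), and Klf6, the most abundant of the called members, averaged 653 ± 237 CPM at 15 min and 405 ± 81.05 CPM at 300 min (-0.63, SE 0.14, adjusted p 0.0183 by edgeR). Klf10 was apart at the 2 times, and Klf6 overlapped. Without pair 1 the call of Klf4 was lost (edgeR adjusted p 0.058). The calls of Klf10 and Klf6 were each lost without 3 of the pairs, with adjusted p up to 0.191 for Klf10 (pairs 1, 2 and 3) and 0.236 for Klf6 (pairs 1, 2 and 4).

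The AP-1 family, whose Fos and Jun proteins pair up and bind DNA, fell in part. Of 13 tested AP-1 factors, 3 were lower and 0 higher, 12 had a negative log2 fold change and 8 were lower at an unadjusted p under 0.05. The list median was -0.70, and DESeq2 called 6 members lower. Fosb, a Fos paralogue, had the largest fall of all called genes: its level was 37.6, 22.4, 17.8 and 16.97 CPM at 15 min and 2.65, 3.19, 1.87 and 1.18 CPM at 300 min. No value at 300 min reached the lowest at 15 min, and the log2 fold change was -3.36, SE 0.57, adjusted p 6.78e-04 by edgeR. Fos was 614, 480.4, 238.2 and 219 CPM at 15 min and 214, 178, 87.7 and 55.1 CPM at 300 min. Here too the times did not overlap, although the lowest 15 min library, replicate 4, was close to the highest 300 min library, replicate 1. The log2 fold change of Fos was -1.54, SE 0.35, adjusted p 0.0194 by edgeR. Jund averaged 174 ± 34.97 CPM at 15 min and 109 ± 17.7 CPM at 300 min (-0.67, SE 0.17, adjusted p 0.0475 by edgeR). Junb (419.5 ± 81.5 CPM at 15 min and 187 ± 28.1 CPM at 300 min, -1.17, SE 0.31, adjusted p 0.0634 by edgeR) and Jun (103 ± 38.7 CPM at 15 min and 60.7 ± 15.1 CPM at 300 min, -0.70, SE 0.19, adjusted p 0.0685 by edgeR) did not pass, and both are named here after their values were seen. Fosb stayed called without any single pair. Fos and Jund lost their calls without pair 1, 2 or 3, with adjusted p of 0.155 to 0.201 for Fos and 0.107 to 0.329 for Jund. Leaving out single libraries ended the call of Fos in 4 of 8 cases and that of Jund in 7 of 8 cases. Jund was also lost with size factors in place of TMM (adjusted p 0.053).

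The EGR, NR4A and other immediate early genes had the lowest median of the 36 functional lists, -1.10 over 19 tested members. There were 3 lower and 0 higher members, and 12 were lower at an unadjusted p under 0.05, against 5.62% of all genes. DESeq2 called 6 members lower. Ier2, a small nuclear regulator, was 66.7, 71.9, 30.5 and 20.1 CPM at 15 min and 12.9, 19.8, 17.7 and 8.46 CPM at 300 min (-1.69, SE 0.32, adjusted p 0.00331 by edgeR). Rhob, a short-lived small GTPase of endosomes and actin, was 265.6, 118, 166 and 106 CPM at 15 min and 69.5, 42.7, 44.9 and 39.3 CPM at 300 min (-1.70, SE 0.32, adjusted p 0.0031 by edgeR). Neither gene overlapped between the times. Ier3, a survival-related response gene, overlapped between the times, with replicate 4 far above the rest at 300 min: it was 196, 113, 90.8 and 366 CPM at 15 min and 23.1, 40.2, 58.6 and 230.7 CPM at 300 min (-1.48, SE 0.35, adjusted p 0.0244 by edgeR). The EGR and NR4A factors themselves did not pass. Nr4a1, an orphan nuclear receptor, was 59.0, 27.6, 34.6 and 2.78 CPM at 15 min and 4.86, 4.33, 4.09 and 1.25 CPM at 300 min (-3.09, SE 0.80, adjusted p 0.0528 by edgeR), and Egr1, a zinc-finger factor, was 116, 106, 16.2 and 4.04 CPM at 15 min and 8.24, 25.4, 16.7 and 1.88 CPM at 300 min (-2.18, SE 0.68, adjusted p 0.131 by edgeR). These 2 were chosen after their values were seen. Both had their lowest 15 min value in replicate 4, and Egr1 did not fall in replicate 3. The call of Ier2 was lost without pair 1 or 2 (adjusted p 0.187 and 0.080), that of Rhob without pair 2 or 3 (0.089 and 0.065), and that of Ier3 without pair 1, 2 or 3 (0.119 to 0.418) and without 5 of the 8 libraries taken singly.

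A phosphatase and a decay factor that switch such signals off fell as well. Dusp1, a nuclear phosphatase that inactivates p38 and JNK, was 555, 512, 273 and 578 CPM at 15 min and 129.9, 165.2, 107 and 192 CPM at 300 min. All 15 min libraries lay above all 300 min libraries, and the log2 fold change was -1.68, SE 0.25, adjusted p 7.52e-05 by edgeR. It was the only called member among 16 MAP kinase feedback inhibitors (median -0.32, 4 lower and 1 higher at an unadjusted p under 0.05; the median was -0.07 without the 15 min library of replicate 1 and -0.51 without that of replicate 3). Zfp36, or tristetraprolin, which binds AU-rich elements and hands the transcript to deadenylases, was 354, 223, 177 and 133 CPM at 15 min and 97.3, 129.8, 75.2 and 50.4 CPM at 300 min. Its times did not overlap, though replicate 4 at 15 min (133 CPM) nearly met replicate 2 at 300 min (129.8 CPM). The log2 fold change was -1.33, SE 0.30, adjusted p 0.0194 by edgeR. Of 16 mRNA decay regulators Zfp36 alone was called, while 14 were negative, with a median of -0.24 and 7 lower at an unadjusted p under 0.05. Dusp1 stayed called whichever pair was left out. Zfp36 lost its call without pair 1, 2 or 3 (adjusted p 0.076 to 0.320) and without 4 of the 8 libraries taken singly.

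**Figure D2:**
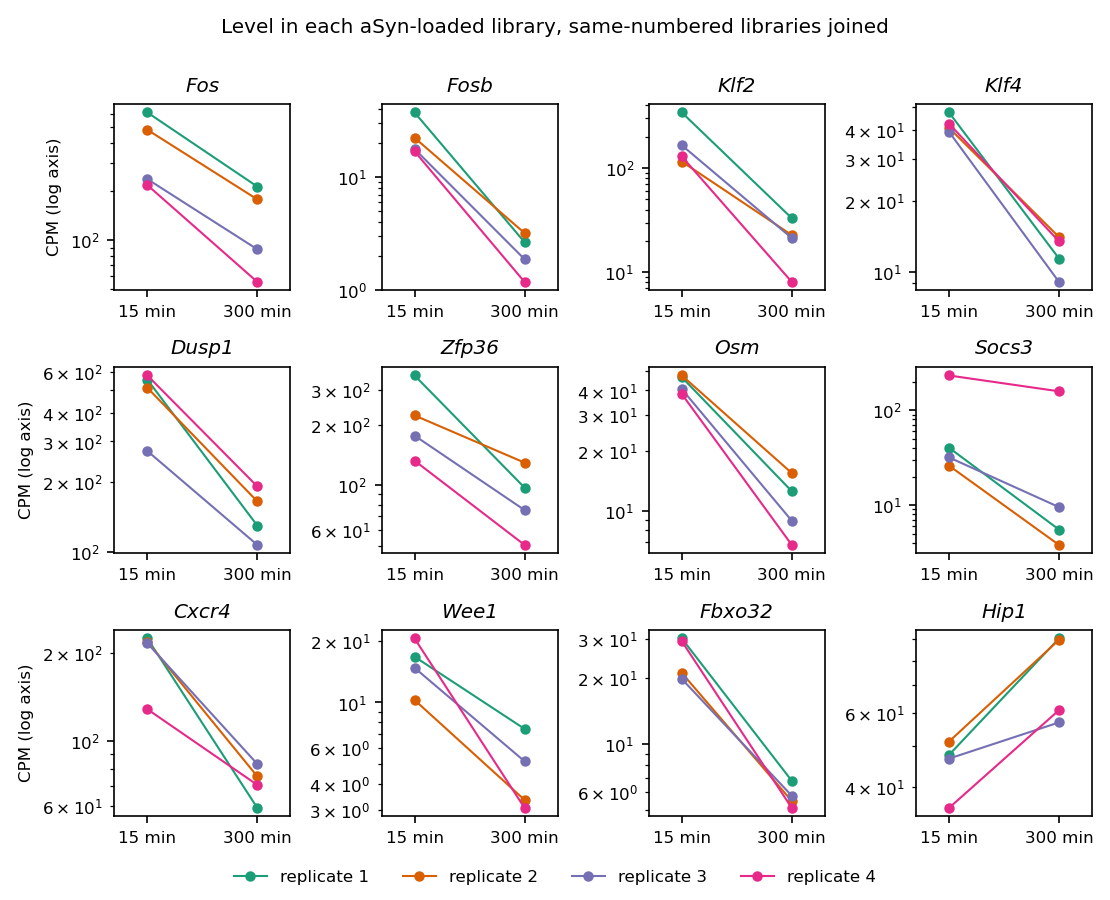
Level of 12 genes in each aSyn-loaded library at 15 and 300 min, in CPM on log axes, with lines joining libraries of the same replicate number. The 11 falling genes slope down in all 4 pairs, Socs3 is far higher in replicate 4 at both times, and Hip1 slopes up in all 4 pairs.

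The sequences below show the AU-rich element that decay factors such as Zfp36 recognise, here searched as TATTTAT in the longest annotated 3′ UTR of each gene (GENCODE M21, on GRCm38, which is mm10), reading the transcript strand and counting overlapping matches. The windows of 30 bases were taken where matches are densest in 6 of the genes described above and below that hold a match, with every match in capitals. They lie at chr8:72320991-72321020 (Klf2, plus strand), chr12:85477106-85477135 (Fos, plus), chr17:26506155-26506184 (Dusp1, minus), chr7:28376962-28376991 (Zfp36, minus), chr17:35822484-35822513 (Ier3, plus) and chr11:4240942-4240971 (Osm, plus).
Klf2: cagactgcTATTTATtggaccttaggacag
Fos: tttcaattTATTTATtaagatggattctca
Dusp1: ctggtcctTATTTATttaacacccccctca
Zfp36: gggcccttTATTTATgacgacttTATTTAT
Ier3: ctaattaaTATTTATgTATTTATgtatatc
Osm: ccgttttaTATTTATaaggccTATTTATaa
The Klf2 UTR of 737 bases holds 1 match, the Fos UTR of 815 bases holds 2, and Dusp1 (690 bases), Zfp36 (774 bases) and Osm (1017 bases) hold 3 each, while Ier3 holds 4 in 613 bases. Other lower genes described here hold 0, among them Klf4, Ier2, Rhob, Cxcr4, Wee1, Fbxo32, Adgre5 and Tsc22d3. Of the 79 lower genes with an annotated 3′ UTR, 41 held the motif (51.9%), against 30.7% of 12269 tested genes and 6 of 15 higher genes. The median UTR was 1244 bases in lower genes and 1205 bases in all. Within UTRs of over 600 to 1000 bases the motif was present in 10 of 21 lower genes (47.6%) against 20.9% of all, and of over 1600 to 2500 bases in 10 of 11 (90.9%) against 39.7%. In UTRs of over 2500 bases the shares were 61.5% and 59.2%. These shares are descriptions, with no test, of genes that were selected by their change.

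Promoters of the genes that fell together were searched in the 250 bases before the RefSeq start (GRCm38.p6), on both strands. A promoter was found for 63 of the 81 lower genes and 10420 tested genes. The cyclic AMP response element TGACGTCA was present in 3 lower genes (4.76% against 3.06% of all tested), its core TGACG in 25 (39.7% against 30.2%), the AP-1 site TGANTCA in 8 (12.7% against 5.61%), and the CArG box of serum response factor in 3 (4.76% against 1.41%). The E-box CACGTG was present in 13 (20.6% against 9.93%), the NF-kB site in 8 (12.7% against 5.59%) and the KLF site CACCC in 34 (54.0% against 60.8%). The core is contained in the full element, so these 2 searches overlap. Among 15 higher genes with a promoter the AP-1 site and the full cyclic AMP element were in 0, the KLF site in 13 and the CArG box in 2. The 2 promoters printed are those of the feedback genes with a match, Dusp1 (chr17:26508473-26508722, minus strand, cyclic AMP element 143 bases before the start) and Zfp36 (chr7:28379229-28379478, minus strand, CArG box 58 bases before the start), with the match in capitals.
Dusp1: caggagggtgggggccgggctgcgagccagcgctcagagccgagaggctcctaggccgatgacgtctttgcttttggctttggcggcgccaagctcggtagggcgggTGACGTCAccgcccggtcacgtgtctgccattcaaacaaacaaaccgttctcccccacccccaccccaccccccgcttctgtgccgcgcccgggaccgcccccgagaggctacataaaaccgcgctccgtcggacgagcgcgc
Zfp36: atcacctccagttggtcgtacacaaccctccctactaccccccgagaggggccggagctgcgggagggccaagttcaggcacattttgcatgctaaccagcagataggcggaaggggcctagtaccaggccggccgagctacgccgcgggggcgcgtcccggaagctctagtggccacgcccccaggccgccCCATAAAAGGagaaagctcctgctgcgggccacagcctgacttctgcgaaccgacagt
A match describes the letters of this window and is no evidence of binding.

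Secreted signals and their brakes changed in few members. Osm, which encodes the IL-6 family cytokine oncostatin M, was 46.6, 47.5, 40.6 and 38.4 CPM at 15 min and 12.5, 15.4, 8.90 and 6.74 CPM at 300 min. The times were far apart, and the log2 fold change was -1.95, SE 0.41, adjusted p 0.00861 by edgeR. It was the only called gene of 16 tested cytokines, whose median of -0.14 became 0.05 without the 15 min library of replicate 4 and -0.34 without that of replicate 3. Tnf (55.1 ± 19.3 CPM at 15 min and 30.5 ± 15.96 CPM at 300 min, -0.88, SE 0.32, adjusted p 0.24 by edgeR) and Il1b (795 ± 1066 CPM at 15 min and 734 ± 1194 CPM at 300 min, -0.74, SE 0.55, adjusted p 0.692 by edgeR) were not called, and both are named after their values were seen. Socs3, an inhibitor of JAK-STAT signalling downstream of IL-6 family cytokines, was 40.3, 26.1, 31.8 and 233.01 CPM at 15 min and 5.52, 3.80, 9.52 and 159 CPM at 300 min. It fell in every pair, but replicate 4 at 300 min exceeded the other 15 min libraries, so the times overlapped, and the log2 fold change was -1.78, SE 0.43, adjusted p 0.0321 by edgeR. Of the 10 cytokine feedback genes, Socs3 alone was called (median 0.04). Osm lost its call without pair 1, 2 or 3 (edgeR adjusted p 0.076 to 0.163) and without 2 of the 8 libraries taken singly. Socs3 lost its call without pair 1, 2 or 3 (0.222 to 0.431) and without 5 of the 8 libraries taken singly.

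Among 22 tested chemoattractant receptors, Cxcr4, the receptor of the chemokine Cxcl12, was the only one called (list median 0.09). It was 224, 219, 216 and 128 CPM at 15 min and 58.9, 75.5, 83.2 and 70.6 CPM at 300 min. Replicate 4 was the lowest at 15 min, and the times did not overlap. The log2 fold change was -1.44, SE 0.22, adjusted p 1.11e-04 by edgeR. Cxcr4 stood at 227.99 ± 29.7 CPM at 0 min, where replicate 4 is missing, 149 ± 37.1 CPM at 60 min and 83.4 ± 15.3 CPM at 150 min, and untreated cells had 70.6 ± 18.8 CPM. Without pair 1 the adjusted p was 0.053. Of 22 chemokines 0 were called (2 lower and 1 higher at an unadjusted p under 0.05, and 0 with DESeq2). The 2 with the smallest p were Cxcl2, with means of 666 ± 419.9 CPM at 15 min and 234.5 ± 159.8 CPM at 300 min (-1.55, SE 0.44, adjusted p 0.0892 by edgeR), and Cxcl1, with 41.7 ± 43.4 CPM at 15 min and 16.8 ± 19.02 CPM at 300 min (-1.39, SE 0.47, adjusted p 0.175 by edgeR), both attractants of neutrophils. Of 17 NF-kB subunits and inhibitors edgeR called 0 (3 lower and 1 higher at an unadjusted p under 0.05) and DESeq2 1, with Nfkbid, a nuclear IkB, at 26.2 ± 8.31 CPM at 15 min and 15.2 ± 2.78 CPM at 300 min (-0.78, SE 0.21, adjusted p 0.0598 by edgeR) and Tnip3 at 62.1 ± 4.49 CPM at 15 min and 85.6 ± 9.87 CPM at 300 min (0.46, SE 0.15, adjusted p 0.149 by edgeR).

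Cell surface adhesion genes included 2 called members of 24 tested. Adgre5, an adhesion G protein-coupled receptor also known as CD97, was 98.4, 86.1, 91.7 and 80.9 CPM at 15 min and 40.5, 37.5, 59.3 and 28.6 CPM at 300 min. The 300 min libraries held less than any 15 min library, and the log2 fold change was -1.15, SE 0.16, adjusted p 2.59e-05 by edgeR. At 300 min Adgre5 was still above the 3.04 ± 0.621 CPM of untreated cells and the 2.29 ± 0.429 CPM of acceptors. Cd44, the hyaluronan receptor, was 404, 398, 422 and 377 CPM at 15 min and 285, 245.01, 291 and 213 CPM at 300 min, again without overlap (-0.63, SE 0.14, adjusted p 0.0194 by edgeR). Of the list 14 members were negative and 10 positive (median -0.05). Adgre5 stayed called without any pair or library, whereas Cd44 lost its call without pair 1 or 2 (edgeR adjusted p 0.211 and 0.224) and without 4 of the 8 libraries taken singly. Exons of Adgre5 overlap those of Ddx39 on the opposite strand, and whether the counting used strand is not given in the sources used here.

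Wee1, the kinase that holds cells before mitosis by phosphorylating Cdk1, was 16.7, 10.3, 14.8 and 20.5 CPM at 15 min and 7.43, 3.34, 5.16 and 3.06 CPM at 300 min. Every 300 min library lay under every 15 min library. The log2 fold change was -1.70, SE 0.20, adjusted p 8.43e-07 by edgeR, the second smallest p of the comparison after Klf2. It was the only called gene among 29 G2 and mitosis genes, whose median was 0.24 with 21 positive. That median was 0.05 without the 15 min library of replicate 4 and 0.38 without its 300 min library. Cdt1, a licensing factor of replication, was the only one called among 26 S-phase genes, with 75.4 ± 13.6 CPM at 15 min and 51.8 ± 2.87 CPM at 300 min (-0.54, SE 0.13, adjusted p 0.0359 by edgeR). Cdt1 lost its call without pair 1 or 2 (0.329 and 0.425) and without 6 of the 8 libraries taken singly, and Wee1 in none of these.

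Fbxo32, or atrogin-1, a ubiquitin ligase subunit transcribed by FOXO factors, was 30.1, 20.99, 19.7 and 29.3 CPM at 15 min and 6.77, 5.47, 5.79 and 5.09 CPM at 300 min. The values were tightly grouped at 300 min and did not overlap, and the log2 fold change was -2.07, SE 0.25, adjusted p 1.37e-06 by edgeR. Irs2, an insulin receptor adaptor and another FOXO target, was 19.8, 20.3, 19.2 and 39.2 CPM at 15 min and 6.62, 8.36, 10.5 and 7.91 CPM at 300 min (-1.46, SE 0.34, adjusted p 0.0257 by edgeR), with replicate 4 high at 15 min. Of 20 FOXO regulators and targets, 3 were lower (Fbxo32, Irs2 and Klf2, which is also a Kruppel-like factor) and 0 higher, with a median of -0.09 and 4 at an unadjusted p under 0.05 in each direction. Irs2 lost its call without pair 1, 2 or 3 (edgeR adjusted p 0.131 to 0.255) and without 4 of the 8 libraries taken singly.

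The TGF-beta list gave 4 called members of 22, all lower, and 9 lower with 0 higher at an unadjusted p under 0.05, with a median of -0.21. Skil, a repressor of SMAD proteins, was 97.4, 112, 125 and 124 CPM at 15 min and 48.1, 52.7, 49.7 and 73.8 CPM at 300 min (-1.04, SE 0.20, adjusted p 0.0031 by edgeR). Its paralogue Ski averaged 90.3 ± 17.1 CPM at 15 min and 61.96 ± 5.32 CPM at 300 min (-0.53, SE 0.09, adjusted p 6.78e-04 by edgeR) and the homeobox repressor Tgif1 142 ± 21.2 CPM at 15 min and 85.5 ± 13.3 CPM at 300 min (-0.73, SE 0.16, adjusted p 0.0132 by edgeR), and neither overlapped between the times. Calls were lost for Ski without pair 3 (edgeR adjusted p 0.092), for Skil without pair 1 or 3 (0.058 and 0.119), and for Tgif1 without pair 1, 2 or 3 (0.072 to 0.106) and without 2 of the 8 libraries taken singly.

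Of 14 glucocorticoid-responsive genes 3 were lower and 0 higher (median -0.08). Tsc22d3, or GILZ, a mediator of glucocorticoid action, was 100.1, 129, 66.5 and 89.3 CPM at 15 min and 40.1, 58.7, 27.8 and 25.5 CPM at 300 min (-1.38, SE 0.20, adjusted p 4.45e-05 by edgeR), without overlap. Sgk1, a serum- and glucocorticoid-regulated kinase, averaged 264.02 ± 100.4 CPM at 15 min and 132 ± 54.9 CPM at 300 min and overlapped (-1.02, SE 0.18, adjusted p 9.27e-04 by edgeR). Cebpb, a factor of myeloid gene expression, averaged 205.3 ± 74.4 CPM at 15 min and 92.1 ± 39.9 CPM at 300 min without overlap (-1.22, SE 0.31, adjusted p 0.0403 by edgeR). Bhlhe40, a clock repressor, was the only called gene among 16 clock genes (17.3 ± 6.20 CPM at 15 min and 6.36 ± 1.34 CPM at 300 min, -1.38, SE 0.31, adjusted p 0.0153 by edgeR), of which 15 were negative (median -0.36, 6 lower at an unadjusted p under 0.05). Tsc22d3 stayed called in all leave-outs. Sgk1 missed without pair 1 or 2 (0.054 and 0.056), Cebpb without pair 1, 2 or 3 (0.244 to 0.394) and without 7 of the 8 libraries taken singly, and Bhlhe40 without pair 1, 2 or 3 (0.136 to 0.204) and without 3 of the 8.

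The hypoxia, ER stress, p53 and NRF2 lists each gave 1 or 2 called members. Vegfa, the vascular growth factor, was 17.1, 17.8, 48.3 and 12.6 CPM at 15 min and 3.16, 2.66, 7.03 and 5.64 CPM at 300 min, without overlap and with a wide SE (-2.59, SE 0.66, adjusted p 0.0465 by edgeR), and was the only one of 26 glycolysis and hypoxia genes called (median -0.05). Ppp1r15a, or GADD34, the phosphatase subunit that restores translation, was 69.5, 82.4, 51.7 and 92.7 CPM at 15 min and 25.5, 40.3, 43.3 and 46.2 CPM at 300 min (-0.93, SE 0.18, adjusted p 0.00434 by edgeR), the only one of 26 ER stress and integrated stress response genes (median -0.01). Among 16 p53 targets Plk3, a stress kinase, averaged 12.96 ± 3.26 CPM at 15 min and 3.97 ± 2.63 CPM at 300 min (-1.76, SE 0.36, adjusted p 0.00559 by edgeR) and Mdm2, the ubiquitin ligase of p53, 383 ± 72.8 CPM at 15 min and 233.9 ± 55.1 CPM at 300 min (-0.71, SE 0.14, adjusted p 0.00311 by edgeR), with a list median of -0.06. Osgin1 was the only one of 24 NRF2 targets (46.5 ± 19.3 CPM at 15 min and 24.9 ± 14.8 CPM at 300 min, -0.96, SE 0.23, adjusted p 0.0266 by edgeR, list median -0.08). Vegfa lost its call without pair 1, 2 or 3 (0.278 to 0.320) and without 7 of the 8 libraries taken singly, Osgin1 without pair 1, 2 or 3 (0.083 to 0.372) and without 4 of the 8, Plk3 without pair 1, 2 or 3 (0.088 to 0.132) and without 1 of the 8, Ppp1r15a without pair 1 or 2 (0.223 and 0.136) and Mdm2 without pair 2 (0.089).

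Further falls included Kdm6b, a histone H3 lysine 27 demethylase, which averaged 10.3 ± 2.85 CPM at 15 min and 3.68 ± 2.33 CPM at 300 min without overlap (-1.69, SE 0.39, adjusted p 0.0194 by edgeR), and Mtmr10, a myotubularin-related protein, which was 35.7, 35.6, 36.6 and 31.96 CPM at 15 min and 23.1, 22.3, 19.3 and 14.3 CPM at 300 min (-0.83, SE 0.16, adjusted p 0.0039 by edgeR), also without overlap. The following were picked after their values were seen. Hes1, a Notch target, averaged 11.4 ± 3.04 CPM at 15 min and 3.87 ± 2.21 CPM at 300 min (-1.66, SE 0.40, adjusted p 0.029 by edgeR), and Nlrp3, the inflammasome sensor, 41.1 ± 7.59 CPM at 15 min and 18.7 ± 6.84 CPM at 300 min (-1.14, SE 0.28, adjusted p 0.039 by edgeR). Plaur, the urokinase receptor, averaged 38.2 ± 16.2 CPM at 15 min and 16.7 ± 4.45 CPM at 300 min (-1.13, SE 0.22, adjusted p 0.00349 by edgeR), Lmna, nuclear lamin A/C, 324 ± 72.1 CPM at 15 min and 186 ± 61.5 CPM at 300 min (-0.82, SE 0.17, adjusted p 0.00861 by edgeR), and Zyx, a focal adhesion protein, 96.5 ± 16.5 CPM at 15 min and 58.3 ± 7.60 CPM at 300 min (-0.71, SE 0.13, adjusted p 0.00185 by edgeR). Kdm6b lost its call without pair 1, 2 or 3 (0.093 to 0.223) and without 5 of the 8 libraries taken singly, and Mtmr10 without pair 2 or 3 (0.076 and 0.066). Hes1 and Nlrp3 lost theirs without pair 1, 2 or 3 (0.202 to 0.241 and 0.131 to 0.360) and without 6 and 7 of the 8 libraries taken singly. Plaur missed without pair 1 (0.065), Zyx without pair 2 (0.089), and Lmna without pair 1 or 2 (0.109 and 0.113) and without 2 of the 8 libraries.

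Of the 17 rises, 0 belonged to any of the gene lists. These lists hold a small part of the genes tested and were chosen with earlier results of these data known, so this 0 says little. The rises were small in most cases. The largest among genes above 1 CPM was 2610203C22Rik, a noncoding transcript, which was 2.45, 0.916, 1.04 and 0.714 CPM at 15 min and 6.25, 5.62, 3.47 and 2.43 CPM at 300 min (1.79, SE 0.37, adjusted p 0.00604 by edgeR). Trp53cor1, the p53-induced lincRNA-p21, averaged 2.28 ± 1.75 CPM at 15 min and 5.85 ± 2.43 CPM at 300 min (1.48, SE 0.34, adjusted p 0.0194 by edgeR), and Fam72a 3.01 ± 1.52 CPM at 15 min and 7.88 ± 3.56 CPM at 300 min (1.41, SE 0.29, adjusted p 0.00635 by edgeR). Bmt2, also called Samtor, an S-adenosylmethionine sensor of mTORC1 signalling, was 117, 137, 103 and 89.3 CPM at 15 min and 232.4, 305, 149 and 127 CPM at 300 min (0.80, SE 0.17, adjusted p 0.00861 by edgeR). Its lowest 300 min library, replicate 4, fell within the 15 min range. Fnbp1l, an F-BAR protein of membrane tubulation and actin, was 53.6, 80.4, 28.01 and 42.6 CPM at 15 min and 106, 136, 45.04 and 70.9 CPM at 300 min (0.79, SE 0.15, adjusted p 0.00268 by edgeR), with overlap between the times. Hip1, a clathrin adaptor of endocytosis, was 47.7, 51.3, 46.7 and 35.6 CPM at 15 min and 90.4, 89.7, 57.0 and 60.9 CPM at 300 min, and was the only riser without overlap (0.71, SE 0.14, adjusted p 0.00555 by edgeR). Each of these 6 rose in 4 of 4 pairs.

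Smaller rises were called for Zfp414 (8.82 ± 2.60 CPM at 15 min and 13.4 ± 3.18 CPM at 300 min, 0.64, SE 0.15, adjusted p 0.0259 by edgeR), Fam111a (93.1 ± 16.4 CPM at 15 min and 144 ± 51.6 CPM at 300 min, 0.59, SE 0.14, adjusted p 0.0244 by edgeR), Mtln, a mitochondrial micropeptide (21.3 ± 4.72 CPM at 15 min and 31.5 ± 4.61 CPM at 300 min, 0.58, SE 0.13, adjusted p 0.0194 by edgeR), Dgkh, a diacylglycerol kinase (36.3 ± 6.93 CPM at 15 min and 54.5 ± 22.04 CPM at 300 min, 0.53, SE 0.13, adjusted p 0.0324 by edgeR), the splicing factor Luc7l3 (136 ± 14.2 CPM at 15 min and 192 ± 31.1 CPM at 300 min, 0.49, SE 0.11, adjusted p 0.0233 by edgeR) and the mitochondrial translation initiation factor Mtif2 (27.8 ± 8.20 CPM at 15 min and 38.3 ± 3.93 CPM at 300 min, 0.49, SE 0.12, adjusted p 0.0337 by edgeR). Fhl1 and Tubb4a were called from very few reads: Fhl1 had 0, 0, 1 and 0 counts at 15 min and 2, 0, 22 and 16 counts at 300 min, and Tubb4a had 0, 0, 3 and 1 counts and then 5, 3, 20 and 12 counts. The calls of Bmt2, Fnbp1l, Hip1 and Fam111a were lost without pair 1 or 2, with highest adjusted p of 0.236 (Bmt2), 0.089 (Fnbp1l), 0.113 (Hip1) and 0.364 (Fam111a). Those of 2610203C22Rik and Fam72a were lost without pair 2 or 3, up to 0.171 (2610203C22Rik) and 0.115 (Fam72a). Trp53cor1 and Zfp414 missed without pair 1, 2 or 4 (up to 0.257 and 0.290), Luc7l3 without pair 1, 2 or 3 (0.311), and Mtln, Dgkh and Mtif2 without any of the 4 pairs (0.235, 0.244 and 0.330).

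**Figure D3:**
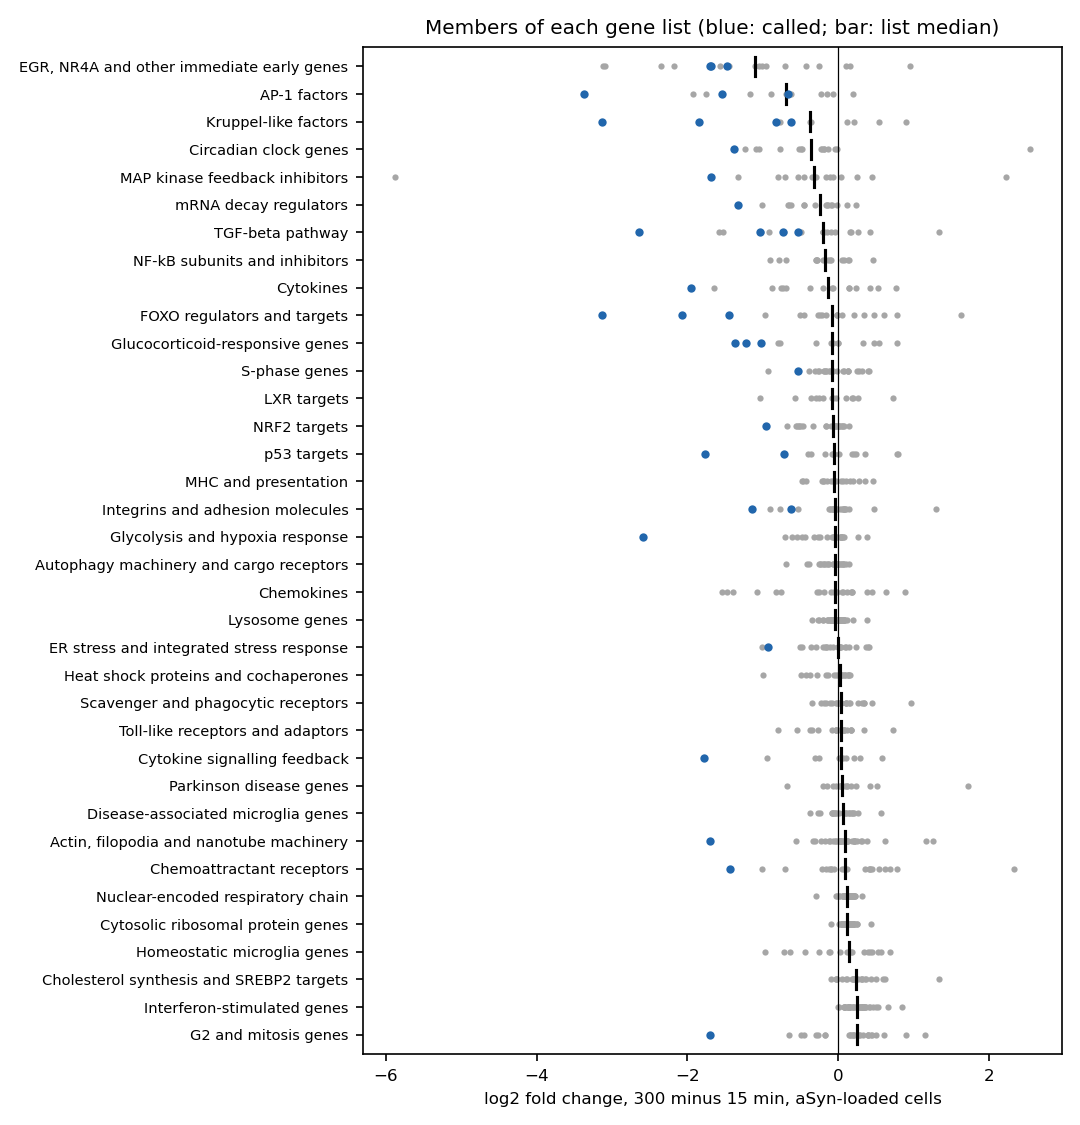
Log2 fold change, 300 minus 15 min, of each tested member of 36 gene lists in aSyn-loaded cells; blue points were called, bars are list medians, and lists are ordered by median. The immediate early, AP-1 and Kruppel-like lists lie lowest (-1.10, -0.70 and -0.38), and no called member is above 0.

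Functional lists of microglia without a call in edgeR were the LXR targets (14 tested), heat shock proteins (21), lysosome genes (42, median -0.04), autophagy genes (29, -0.05), scavenger and phagocytic receptors (24, 0.03), Toll-like receptors and adaptors (20, 0.03), homeostatic microglia genes (18, 0.14), disease-associated microglia genes (23, 0.06), MHC and presentation genes (18, -0.05) and Parkinson disease genes (17, 0.05). DESeq2 called 1 lower gene among the Toll-like receptors and adaptors, 1 lower and 1 higher among the homeostatic genes and 0 in the other 8 lists. Over 18 alternatives, leave-outs included, the medians of 19 of the 36 functional lists kept 1 sign. The 17 that did not were those of the homeostatic, disease-associated, MHC, lysosome, heat shock, scavenger, Toll-like, cytokine, cytokine feedback, chemokine, NRF2, ER stress, p53, FOXO, glycolysis and hypoxia, adhesion and S-phase lists. At an unadjusted p under 0.05, edgeR had 3 lower LXR targets, 2 heat shock, 2 lysosome and 4 autophagy genes lower, 2 Toll-like list members lower and 1 higher, 3 homeostatic genes lower and 2 higher, 1 disease-associated gene lower, 1 MHC and 1 Parkinson disease gene higher, and 0 scavenger receptors. Among all genes tested, 5.62% were lower and 5.04% higher at that threshold, and several of these counts are near those shares. The actin, filopodia and nanotube list had 41 tested members, of which Rhob alone was called (median 0.09). Lpl, a lipase of the disease-associated list, was 5674, 5680.2, 3855 and 1424 CPM at 15 min and 10502, 9123, 4362 and 1682 CPM at 300 min (0.56, SE 0.32, adjusted p 0.567 by edgeR) and did not pass. Plin2, a lipid droplet coat protein and LXR target, averaged 2416 ± 478 CPM at 15 min and 1653 ± 588 CPM at 300 min (-0.57, SE 0.17, adjusted p 0.104 by edgeR), and Sqstm1, the autophagy receptor p62, 2126 ± 444 CPM at 15 min and 1605 ± 426 CPM at 300 min (-0.42, SE 0.16, adjusted p 0.277 by edgeR), both without a call.

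In 4 lists without a call nearly all members were above 0. All 41 interferon-stimulated genes had a positive log2 fold change, with a median of 0.24 and 1 higher at an unadjusted p under 0.05. Mx2, an interferon-induced GTPase, was 25.1, 27.6, 20.8 and 25.6 CPM at 15 min and 54.9, 63.2, 32.6 and 36.7 CPM at 300 min, without overlap, yet the test did not pass (0.85, SE 0.39, adjusted p 0.422 by edgeR). The fit of the 8 libraries alone called 11 of the 41 higher, DESeq2 called 0, and the list median was 0.02 without the 300 min library of replicate 4 and 0.46 without its 15 min library. Nuclear-encoded respiratory chain genes were positive in 37 of 40 (median 0.11), cytosolic ribosomal protein genes in 81 of 82 (0.12), and cholesterol synthesis and SREBP2 targets in 19 of 23 (0.23). The ribosomal median was 0.04 without the 15 min library of replicate 4, and the cholesterol median 0.14 without the 300 min library of replicate 1. In acceptors, 300 minus 15 min, the interferon median was 0.72 (2 members negative) and the respiratory chain median 0.10 (7 negative). The ribosomal median there was 0.05 (18 negative) and the cholesterol median 0.002 (11 negative). Whether these lists differ between loaded cells and acceptors was not tested. Genes of one list are not independent of each other, and the median of all genes in loaded cells was 0.02. Astrocyte markers had a median of 0.83 over 12 tested genes with 3 higher at an unadjusted p under 0.05, and 6 tested neuron markers a median of 1.20. Oligodendrocyte-lineage markers had a median of 0.37 over 10 tested genes, among them the factor Olig1, which went from 4.60 ± 5.83 to 14.5 ± 14.4 CPM (SD, n = 4 each; edgeR adjusted p 0.135, and 0.00371 in the fit of the 8 libraries alone). That fit also called Olig2 (edgeR adjusted p 0.0396) and the astrocyte marker Sparcl1 (0.0148) higher. Olig1, Olig2, Sox10, Pdgfra, Sparcl1, Slc1a2 and Slc1a3 were higher in 4 of 4 pairs, and Gfap was at 0.337 and 0.901 CPM. The part of such transcripts in the rises was not tested.

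By their median, the lower genes stood near their 15 min level up to 60 min of co-culture. Relative to the 15 min mean, on the scale of log2(CPM + 0.5), the median of the 81 lower genes was -0.15 in loaded cells at 0 min, -0.04 at 30 min, -0.03 at 60 min, -0.43 at 150 min and -0.82 at 300 min. In all genes the same medians lay within 0.02 of 0. The median was -0.17 in cells given aSyn without co-culture and -0.93 in untreated cells. At 300 min all 81 genes averaged below the aSyn-only mean, where 48.2% of all genes did, and 37 of the 81 averaged below the untreated mean, where 54.1% of all genes did. For the 17 higher genes the medians were 0.08 at 30 min, 0.01 at 60 min, 0.34 at 150 min, 0.63 at 300 min, 0.23 in aSyn-only and 0.80 in untreated cells. The 15 and 300 min values chose these genes, and every ratio shares the 15 min libraries, so these medians are a description. The means at 0 and 60 min each lack a replicate that the 15 min mean holds, and no allowance was made for this.

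Single genes followed different courses. Dusp1 went from 329 ± 90.3 CPM in aSyn-only cells to 479 CPM at 15 min, 312 ± 113 CPM at 60 min and 188 ± 49.9 CPM at 150 min. Fosb held at 26.6 ± 11.2 CPM at 30 min and 23.97 ± 7.88 CPM at 60 min and was at 4.58 ± 1.53 CPM at 150 min. Fos was already at 201 ± 26.4 CPM by 60 min. Wee1 was at 14.2 ± 2.25 CPM at 60 min, 9.41 ± 2.51 CPM at 150 min and 4.75 CPM at 300 min, below its untreated mean of 12.2 ± 4.17 CPM. Fbxo32 was at 8.24 ± 1.46 CPM at 150 min and 6.14 ± 1.45 CPM in untreated cells. The 60 min values rest on replicates 1, 3 and 4, while those at 15 min rest on all replicates. The steps between these times were not tested here.

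**Figure D4:**
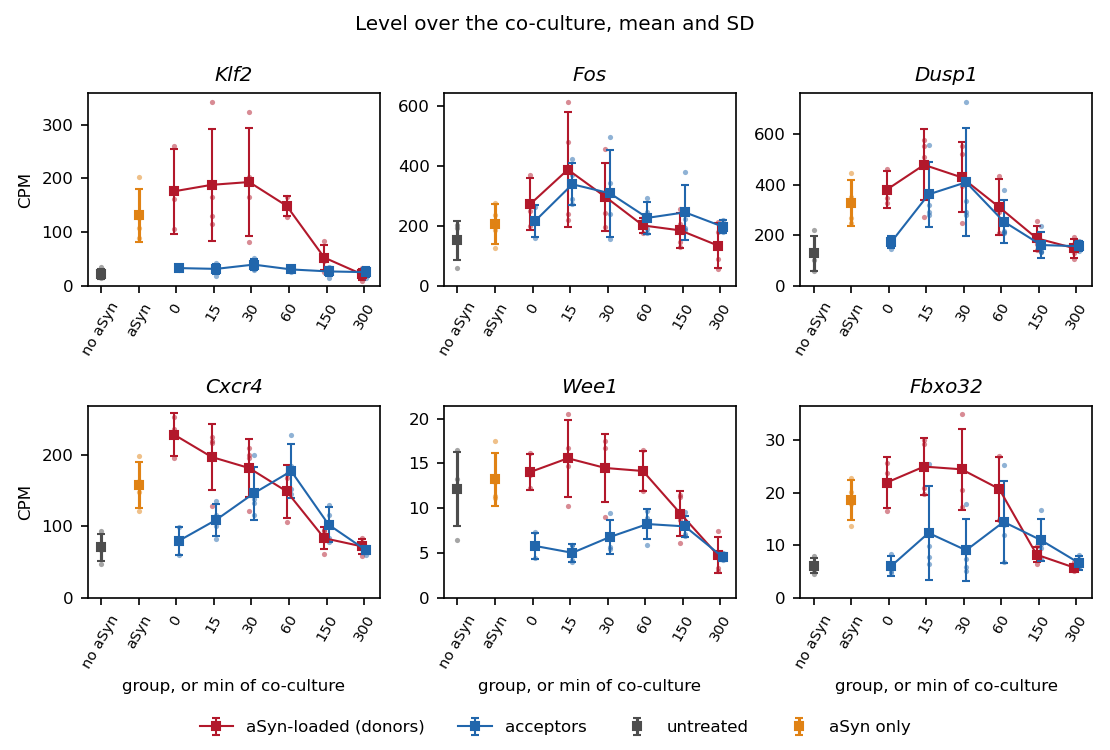
Mean and SD (bars) of CPM with single libraries as points, for 6 genes, against group or minutes of co-culture; red is aSyn-loaded cells, blue acceptors, grey untreated and orange aSyn-only cells, with 3 or 4 libraries each. In loaded cells all 6 genes are lower at 300 than at 15 min (Klf2 188 to 21.3 CPM). The means of Fos, Dusp1 and Cxcr4 are already below their 15 min means at 60 min. Acceptors start low for Klf2 and Wee1.

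Acceptors from the same co-cultures allowed the change to be set beside that of cells not given aSyn before mixing. Whether aSyn reached them during the co-culture was not tested here. Their 300 against 15 min contrast (3 and 4 libraries, replicate 3 having none at 300 min) called 0 genes with edgeR (0%), with 774 at an unadjusted p under 0.05 and a lowest adjusted p of 0.251. DESeq2 called 9, and edgeR called 16 without replicate 2. Of the 81 genes lower in loaded cells, 64 were negative in acceptors, against 51.2% of all genes, with a median of -0.18, and 22 of them at an unadjusted p under 0.05. Of the 17 higher genes 14 were positive in acceptors. The difference of the 2 changes was called by edgeR for 2 genes (0.0152%), Klf2 and Wee1.

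The acceptor log2 fold change of Klf2 was -0.27 (SE 0.37), with 31.2 ± 9.79 CPM at 15 min and 25.1 ± 8.94 CPM at 300 min, and the difference of changes was -2.87 (SE 0.49, edgeR adjusted p 0.0112). That of Wee1 was -0.13 (SE 0.23), from 5.03 ± 1.03 CPM to 4.57 ± 0.400 CPM, and the difference was -1.57 (SE 0.30, edgeR adjusted p 0.035). Cd44 was the next in size of p, with 0.40 in acceptors (SE 0.16) and a difference of -1.03 (SE 0.21, edgeR adjusted p 0.0773), which did not pass. Without the replicate block 0 differences were called, and leaving out replicate 1 or 3 gave 0 differences, replicate 2 gave Klf2 alone, and replicate 4 gave St8sia4 alone (0.84, edgeR adjusted p 0.0223), a gene named after its value was seen. Without replicate 1, 3 or 4 the adjusted p of Klf2 was 0.30, 0.39 and 0.071, and without replicate 1, 2, 3 or 4 that of Wee1 was 0.30, 0.53, 0.39 and 0.14.

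For other falls edgeR did not show the 2 populations to differ. DESeq2 with the same block called the difference for Cd44 (-1.03, DESeq2 adjusted p 0.00318) and Zyx (-0.88, 0.00956). It also called Plaur (-1.45, 0.0133) and Skil (-1.19, 0.0472). The values that follow are from edgeR. The acceptor log2 fold change of Dusp1 was -1.29 (SE 0.27, unadjusted p 2.79e-05, edgeR adjusted p 0.251), from 362 ± 130.5 CPM to 156 ± 19.1 CPM, and the difference of changes was -0.39 (SE 0.36, edgeR adjusted p 1). Adgre5 had -1.05 in acceptors (SE 0.24, edgeR adjusted p 0.251) at a far lower level, from 5.19 ± 1.39 CPM to 2.29 ± 0.429 CPM, with a difference of -0.10 (SE 0.30, edgeR adjusted p 1). In acceptors Fosb had -1.89 (SE 0.68) and Fos -0.84 (SE 0.38), with differences of -1.47 (SE 0.89, edgeR adjusted p 1) for Fosb and -0.69 (SE 0.51, edgeR adjusted p 1) for Fos. Cxcr4 had -0.69 there (SE 0.24), with a difference of -0.75 (SE 0.32, edgeR adjusted p 0.95). Among the risers, Luc7l3 rose by 0.49 in loaded cells and was 0.55 (SE 0.12, adjusted p 0.251) in acceptors, while Bmt2 was -0.16 (SE 0.18) in acceptors with a difference of 0.96 (SE 0.25, edgeR adjusted p 0.391). Exons of 28 of the 81 lower genes and 4 of the 17 higher genes overlap an annotated gene on the opposite strand, Dusp1 (Ergic1), Fbxo32, Zfp36 and Bhlhe40 among them, and the counting's use of strand is not given in the sources used here.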

How the data were processed

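Per the labels' protocols, RNA of the sorted cells was read from the 3′ end of poly(A) transcripts (QuantSeq FWD). Unnormalized counts were deposited by the authors per gene symbol for 54 libraries and 16632 genes, per the file headers, and a normalized signal that equals the deposited count divided by a size factor in 100% of values (tolerance 0.05) and was used for that check only. The submitters' processing notes name mm10, STAR, Partek and DESeq2, without versions or roles; the annotation and the use of strand are not given in the sources used here.

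Counts were fitted with edgeR (4.0.16, R 4.3.3, TMM scaling, filterByExpr with minimum count 10) over all 14 groups, 52 units after same-numbered untreated libraries were summed, with the replicate number as a block, and the contrast was 300 minus 15 min. The pairing comes from replicate numbers in the labels. Same-numbered deviations correlated at 0.54, 0.54, 0.53 and 0.74 and differently numbered ones at -0.56 to 0.18. No libraries of a group were duplicates (chi-square per degree of freedom 33.7 to 259). Levels are CPM on TMM-scaled library sizes. DESeq2 (1.42.0) was an alternative.

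Genes are named by a rule: the 12 largest called falls and rises with 1 direction in 4 pairs and a mean of at least 1 CPM, up to 4 called members of each list with the smallest p (or 2 uncalled ones), and Klf2, Wee1, Cxcr4 and Mtmr10. One gene given by this rule is not reported here. The genes, lists and members were chosen with earlier results of these data known. The 13 mitochondrially encoded genes were not analysed here. Simulated data with the same layout recovered 36% of 1.5-fold, 61.2% of 2-fold, 78% of 4-fold and 77.6% of 8-fold changes in this comparison. There were 3 calls among 12855 unchanged genes. The simulated counts were drawn from the fitted model itself, replicate block included, so they could not test whether that model suits the real data. Intervals were not used, and depth was 11406996 to 14021275 counts per library. Marker lists cover microglia, astrocytes, oligodendrocytes, neurons, endothelial cells, fibroblasts, leukocytes and ependymal cells. Summed markers of endothelial cells and pericytes were 56.5 to 79.9 CPM at 15 min and 57.7 to 107 CPM at 300 min, of fibroblasts 4.37 to 12.5 and 4.01 to 15.2 CPM, of neutrophils and lymphocytes 0.0704 to 4.36 and 0 to 8.46 CPM, and of ependymal cells 0.555 to 4.16 and 0.235 to 2.51 CPM.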

Additional observations from a re-analysis of the deposited data

Results flagged for a closer look

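Of 122 groups of 4 libraries examined (48 called genes and 13 technical measures at each time), 11 held a library far from the others, where chance gives about 1 in 20 groups. Replicate 4 was the odd library in 8 of the 11. Socs3 stood at 233.01 CPM in replicate 4 against 26.1 to 40.3 CPM in the others at 15 min, and at 159 CPM against 3.80 to 9.52 CPM at 300 min. Ier3 was 230.7 CPM in replicate 4 at 300 min, with 23.1 to 58.6 CPM in the others. Cxcr4 was low in replicate 4 at 15 min (128 CPM against 216 to 224 CPM), and Irs2 was high there (39.2 CPM against 19.2 to 20.3 CPM). At 300 min Tgif1 was 65.6 CPM in replicate 4 and 90.6 to 94.2 CPM in the others. Summed microglia and macrophage markers were 5570 CPM in replicate 4 at 300 min against 11119 to 12052 CPM, and summed neutrophil and lymphocyte markers were 8.46 CPM against 0 to 0.979 CPM.

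Other libraries stood apart for Vegfa in replicate 3 at 15 min (48.3 CPM against 12.6 to 17.8 CPM), and in replicate 1 at 300 min for Klf10 (24.5 CPM against 21.96 to 22.17 CPM) and Ski (69.9 CPM against 58.6 to 60.1 CPM).

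By a test of the difference itself, the change from 15 to 300 min differed between aSyn-loaded and acceptor cells for Klf2 (-2.87 on the log2 scale, edgeR adjusted p 0.0112) and Wee1 (-1.57, edgeR adjusted p 0.035). Neither was called without the replicate block. Klf2 was lost without replicate 1, 3 or 4 (edgeR adjusted p 0.071 to 0.39). Wee1 was lost without any single replicate (0.14 to 0.53). Acceptors were already low for both genes at 15 min.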

How the results depend on the processing

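The number of calls depends on the fit more than the directions do: all 98 genes kept their sign in each of 18 alternatives that gave them a value, and 0 reversed. Dropping the replicate block left 10 calls (0 higher, 10 lower) and 0 differences between loaded and acceptor cells; the pairing therefore decides 88 of the 98 calls. The 8 libraries alone gave 504 (187 higher, 317 lower), with 3 residual degrees of freedom against 35. DESeq2 gave 160 (48 higher, 112 lower, 97 of the 98 shared), 9 in acceptors and 25 for the difference. Those 25 included log2 differences such as 59.2 (Otud7a) and -61.1 (Tlr5), which are too large to be read as fold changes. Tlr5 did not pass the filter of the main fit. Klf2 (-2.87) and Wee1 (-1.56) were also among the 25. Size factors gave 93, no filter 90 and a stricter filter 104. Leaving out a pair or a single library gave 15 to 207 calls, 0 to 34 higher and 15 to 173 lower, 0 to 16 in acceptors and 0 to 1 for the difference; the cause was not tested. With 1 pair fewer, 3 pairs remain. Genes near 1 CPM, such as 2610203C22Rik, rest on few counts.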

Other observations

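Shares of lower genes with the AU-rich motif were higher than among all tested genes in 5 of the 6 classes of UTR length by over 10 percentage points, and the exception was the class above 2500 bases. The classes up to 300 and up to 600 bases hold 1 of 3 and 2 of 8 lower genes with the motif, so each of these shares rests on few genes. Lower genes had a median of 6 exons and a span of 15168 bases, against 8 exons and 24495 bases in all tested genes, and higher genes 6 exons and 34099 bases. These are descriptions with no test.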
